A study of Mus musculus with 80 samples.

Results

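Lungs of CYP2F1 humanized mice (TG) that breathed 10 or 40 ppm styrene were compared with lungs of TG mice that breathed air. The 15 arrays of this comparison, out of 80 in the series, were taken by strain and dose from the sample titles: 5 arrays at 10 ppm and 5 at 40 ppm, pooled as 10 exposed arrays, and 5 at 0 ppm. All mice were adult males from Taconic, and TG mice carry human CYP2F1 on a C57Bl/6 background, per the labels. Each mouse was exposed once for 6 h, and whole lungs were collected the next morning. TG lungs at 120 ppm (5 arrays) entered the fit and are shown beside the lower doses. The CYP2F2 knockout strain (KO) and the C57Bl/6 wild type strain (WT) were exposed in the same way, with 5 arrays for each dose, and served for tests of the difference in response. The promoter and the cells that drive the human gene are not stated in the labels, nor is whether TG mice descend from 1 line. Whether the mouse Cyp2f2 gene is intact or disrupted in TG mice was not checked here, and its probe set cannot show it. The labels call the 5 arrays of a group biological replicates.

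Styrene is an aromatic solvent used to make plastics and rubber. In mouse lung it is oxidized mainly in club cells, which secrete proteins onto the airway surface, by the cytochrome P450 enzyme CYP2F2, and its ring-oxidized products are regarded as the source of airway toxicity in this species. CYP2F1 is the human counterpart of that enzyme, and the comparison asks which lung transcripts differ after styrene in mice that carry it. The measured quantity was the log2 signal of Affymetrix probe sets, with 1 probe set standing for each gene and 11406 genes tested. A gene was called when its p-value from limma, adjusted by Benjamini-Hochberg over all tested genes, lay below 0.05. Whole lung RNA does not separate fewer cells of a type from less RNA per cell.

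The labelled tissue was borne out by its defining markers. On exposed and air arrays, the log2 signal of Sftpc, a surfactant gene of alveolar type 2 cells, ran from 13.67 to 13.76 and 13.68 to 13.74. That of Scgb1a1, the major secreted protein of club cells, ran from 13.52 to 13.76 and 13.65 to 13.77, and that of Ager, a marker of alveolar type 1 cells, from 13.25 to 13.46 and 13.23 to 13.40. Of the 18 club cell markers with a named probe set, 17 were tested. Pearson correlations between TG arrays of the same group ran from 0.978 to 0.996, and no pair of arrays held identical values.

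One air array stood apart and bears on every comparison with air. The median log2 signal of TG air replicate 4 over all probe sets was 3.84, whereas the other 4 air arrays lay between 4.07 and 4.13, and the 10 exposed arrays also lay between 4.07 and 4.13. The mean of the array medians was 4.11 ± 0.02 in exposed lungs (SD, n = 10) and 4.06 ± 0.12 in air lungs (SD, n = 5), a difference of 0.06 (exact permutation test over arrays, two-sided, p = 0.138). Without air replicate 4 the difference was 0.003 (exact permutation test, p = 0.808). Results are therefore given as deposited, with each array centred on its own median, and without this array.

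**Figure D1:**
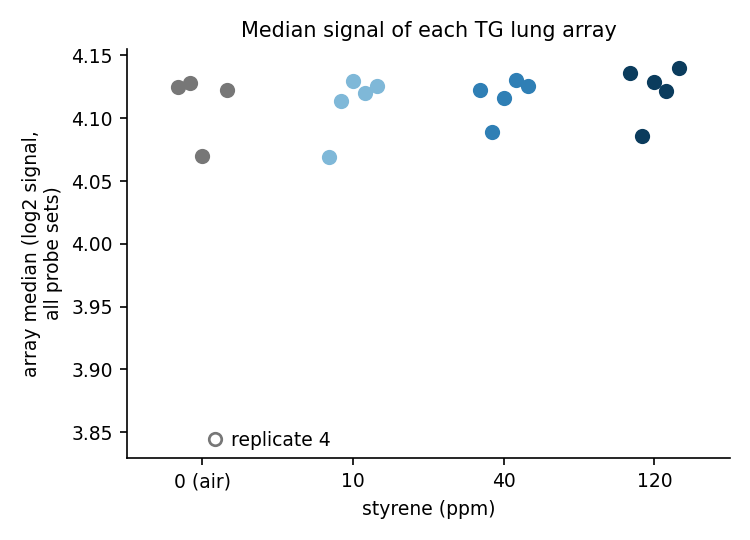
Median log2 signal over all probe sets (y axis) of each of the 20 TG arrays, by styrene dose in ppm (x axis), with 1 point for each array. Air replicate 4, the open circle, lies at 3.84, and the other TG arrays lie between 4.07 and 4.14.

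No gene passed the adjusted threshold in exposed against air TG lungs. Limma called 0 of 11406 genes (0% called), and the lowest adjusted p was 0.128. At an unadjusted p under 0.05 there were 1339 genes, where 570.3 were expected from the threshold alone, and 1173 of these were higher in exposed lungs (10.3% of all tested) and 166 lower (1.46%). The excess of higher genes was smaller once air replicate 4 was centred or left out. With centred arrays 614 genes were higher (5.38%) and 516 lower (4.52%), and without air replicate 4 the counts were 516 (4.52%) and 460 (4.03%). The median difference over all tested genes was 0.05 log2 as deposited, -0.002 with centred arrays and 0.005 without air replicate 4. By dose, limma called 0 genes at 10 ppm (0% called, 1579 unadjusted, lowest adjusted p = 0.140) and 0 at 40 ppm (0% called, 867 unadjusted, lowest adjusted p = 0.214). Between 40 and 10 ppm, a contrast that uses no air array, limma called 0 genes (0% called, 840 unadjusted, lowest adjusted p = 0.384). The 2 dose contrasts share the 5 air arrays.

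The largest difference among the leading genes was a lower signal of Nr4a3, an orphan nuclear receptor whose transcript is induced within minutes to hours by many stimuli, among them cyclic AMP. Its log2 signal was 5.02, 5.20, 4.91, 4.34 and 4.96 at 10 ppm and 5.03, 4.19, 4.68, 4.29 and 4.73 at 40 ppm, against 6.32, 6.37, 6.09, 4.73 and 5.63 in air. Every exposed array lay below the 4 air arrays other than replicate 4, and replicate 4 lay inside the exposed range. Nr4a3 averaged 4.74 ± 0.35 in exposed lungs (SD, n = 10) and 5.83 ± 0.68 in air lungs (SD, n = 5), a difference of -1.09 ± 0.22 (SE) that did not pass over all genes (limma adjusted p = 0.128). It passed with centred arrays (-1.15 ± 0.20, limma adjusted p = 0.0468) and without air replicate 4 (-1.37 ± 0.18, limma adjusted p = 0.00249). The differences from air were -0.94 at 10 ppm, -1.24 at 40 ppm and -1.54 at 120 ppm, and only the last passed as deposited (limma adjusted p = 0.0195). The other 2 probe sets of Nr4a3 lay at or below the median of the table (4.28) on all 15 arrays and gave no usable reading. The 250 bases before the start of Nr4a3 (chr4:48045055-48045304 on the + strand of GRCm38.p6, RefSeq) are shown because this gene had the largest difference. Capitals mark the core of the cyclic AMP response element, TGACG on either strand.
Nr4a3: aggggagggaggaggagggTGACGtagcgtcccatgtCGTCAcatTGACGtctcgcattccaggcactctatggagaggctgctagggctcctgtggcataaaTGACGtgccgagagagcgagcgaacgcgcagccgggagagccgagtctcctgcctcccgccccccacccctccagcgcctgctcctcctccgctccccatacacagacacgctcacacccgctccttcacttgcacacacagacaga
The core matched at 4 places, which begin 231, 213, 205 and 147 bases before the start. It was found in the same window of 17.8% of 32851 mouse promoters. Counted by gene, with a match in any promoter, it was found for 19.8% of 27025 genes and for 13 of the 19 tested immediate early genes with a listed promoter. A match is a description of the letters and does not show a bound site.

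The 10 genes with the lowest p among those higher in exposed lungs had all 10 exposed arrays above the air mean, and none passed. Cirbp, which encodes an RNA-binding protein induced by mild cold, had the largest difference of these. Its log2 signal was 6.79, 7.40, 6.77, 6.54 and 6.85 at 10 ppm and 6.67, 6.43, 7.03, 6.66 and 6.70 at 40 ppm, against 5.73, 6.32, 5.81, 5.47 and 6.34 in air. The groups did not overlap, with the lowest exposed array at 6.43 and the highest air array at 6.34. Cirbp differed by 0.85 ± 0.16 as deposited (limma adjusted p = 0.128), by 0.79 with centred arrays (limma adjusted p = 0.0720) and by 0.73 without air replicate 4 (limma adjusted p = 0.251). It stood 0.93 above air at 10 ppm, 0.76 at 40 ppm and 0.83 at 120 ppm. The cold-inducible list held 2 other tested genes, which did not share its difference. Rbm3, the other well-known cold-inducible RNA-binding protein gene, stood at 0.05 ± 0.18 and Rbm14 at 0.03 ± 0.11, and both were below 0 with centred arrays (-0.01 and -0.03) and without air replicate 4 (-0.09 and -0.08). The promoter of Cirbp (chr10:80167589-80167838, + strand, GRCm38.p6, RefSeq, 1 of 2 listed for the gene) is shown with capitals for the mild cold response element, TCCCCGCC on either strand.
Cirbp: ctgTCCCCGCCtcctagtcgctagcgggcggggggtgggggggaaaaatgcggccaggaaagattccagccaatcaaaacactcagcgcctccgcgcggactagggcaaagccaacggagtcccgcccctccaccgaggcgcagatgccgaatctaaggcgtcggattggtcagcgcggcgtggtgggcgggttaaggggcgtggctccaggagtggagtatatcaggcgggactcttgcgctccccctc
This element lay 247 bases before the start and was found in 4.64% of the promoters and for 5.37% of 27025 genes. The promoter shown was picked by its number of matches.

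Among the other genes of this group, Mul1 encodes a ubiquitin ligase of the outer mitochondrial membrane. Its log2 signal was 4.47, 4.81, 4.82, 4.73 and 4.70 at 10 ppm and 4.73, 4.68, 4.56, 4.84 and 4.76 at 40 ppm, against 4.15, 4.18, 4.08, 3.39 and 4.53 in air. Air replicate 4 was by far the lowest array, and 10 ppm replicate 1 lay below air replicate 5. Mul1 differed by 0.64 ± 0.12 (limma adjusted p = 0.128), passed with centred arrays (0.59 ± 0.10, limma adjusted p = 0.0468) and did not without air replicate 4 (0.48, limma adjusted p = 0.144). Its second probe set disagreed, with a difference of -0.10, so the gene's direction is uncertain.

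Khk, which encodes ketohexokinase, the first enzyme of fructose breakdown, had a log2 signal of 5.96, 6.36, 6.24, 6.51 and 6.31 at 10 ppm and 6.11, 6.23, 6.17, 6.21 and 6.05 at 40 ppm, against 5.86, 5.81, 5.76, 5.21 and 5.78 in air. The groups did not overlap, and the difference was 0.53 ± 0.10 (limma adjusted p = 0.128). It was 0.41 without air replicate 4, the lowest air array. N6amt1, a methyltransferase of translation release factor, had exposed arrays between 5.03 and 5.66 and air arrays between 4.81 and 5.07, a difference of 0.41 ± 0.08. On leaving out 1 array its difference ran from 0.37 to 0.45. Rabl3, a small GTPase-like protein, had the lowest p of all genes, with exposed arrays between 4.49 and 4.81 and air arrays between 4.20 and 4.46 (0.36 ± 0.07, limma adjusted p = 0.128). Without air replicate 4 Rabl3 differed by 0.33. The remaining genes were Aqp11, a water channel of intracellular membranes (0.56), Tuba8, an alpha tubulin (0.50), 2510002D24Rik (0.45), Micu2, a regulator of the mitochondrial calcium uniporter (0.28), and Rab27a, a GTPase of secretory granule transport (0.27). Aqp11 lay above the median of the table on only 2 of the 15 arrays.

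Of the 10 genes with the lowest p among those lower in exposed lungs, Igf1, Hsph1 and Ckap2 differed most after Nr4a3. Igf1, the growth factor gene, had a log2 signal of 8.12, 7.04, 7.43, 7.33 and 7.48 at 10 ppm and 6.94, 7.77, 7.13, 6.88 and 7.19 at 40 ppm, against 8.14, 7.81, 8.31, 7.40 and 8.04 in air. In all, 4 exposed arrays (10 ppm replicates 1, 3 and 5 and 40 ppm replicate 2) lay in the air range, and the difference was -0.61 ± 0.16 (limma adjusted p = 0.251). Its 3 other probe sets gave -0.71, -0.56 and -0.34. Hsph1 (-0.57 ± 0.16) is described with the heat shock genes. Ckap2, a spindle protein gene, stood at -0.44 but was at or below the median of the table on all 15 arrays. Itih4, a liver-type acute phase protein, differed by -0.35 ± 0.09 and Col27a1, a fibrillar collagen, by -0.36 ± 0.11. The second probe set of Col27a1, above the median of the table on all 15 arrays, gave only -0.07. Manf, a secreted protein of the endoplasmic reticulum stress response, differed by -0.27 ± 0.08. St13, a cochaperone of Hsp70, differed by -0.22 ± 0.06 and Hspa5, the chaperone BiP, by -0.18 ± 0.05. From Itih4 to Hspa5, limma adjusted p values lay between 0.220 and 0.280.

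**Figure D2:**
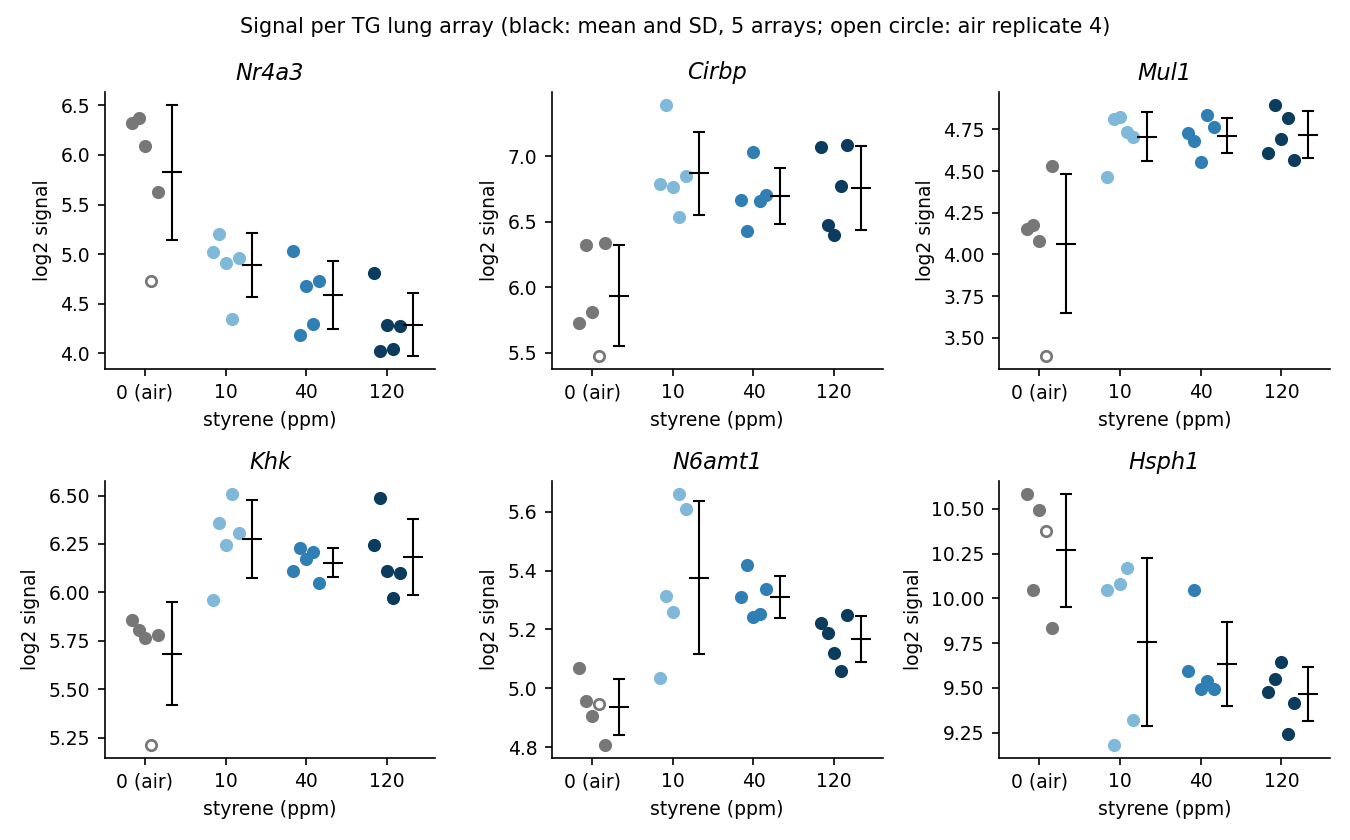
Log2 signal (y axes) of 6 genes on each TG array, by styrene dose in ppm (x axes). Points are arrays, the open circle is air replicate 4, and the black marks give the mean and SD of 5 arrays. Cirbp and Khk lay higher on every exposed array of 10 and 40 ppm than on every air array, and Nr4a3 lay lower than on the 4 air arrays other than replicate 4.

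Counted without any test, 23 genes had all 10 exposed arrays above all 5 air arrays (0.202% of the tested genes), and 0 had them all below (0%). With centred arrays the counts were 9 and 7. Without air replicate 4 they were 25 and 17, so 17 genes (0.149%) had all exposed arrays below the other 4 air arrays. Aox3, an aldehyde oxidase, was among the 23, with exposed arrays between 9.16 and 9.48 and air arrays between 8.89 and 9.15, but it overlapped once the arrays were centred. Cirbp, Khk and Rabl3 were still apart with centred arrays.

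Heat shock genes encode chaperones and cochaperones that refold proteins, and many are driven by the transcription factor HSF1. Of the 16 tested members, 13 stood below air in exposed TG lungs and 3 above (31.2% of all tested genes stood below), 0 passed over all genes (0% called), and 8 had an unadjusted p under 0.05, all lower, beside 1.46% of all tested genes. The list median was -0.24 as deposited, -0.29 with centred arrays and -0.26 without air replicate 4, beside 0.05, -0.002 and 0.005 for all tested genes. By dose the list median was -0.17 at 10 ppm and -0.25 at 40 ppm.

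Hsph1, the large chaperone Hsp110, had a log2 signal of 10.05, 9.18, 10.08, 10.17 and 9.32 at 10 ppm and 9.59, 10.04, 9.49, 9.54 and 9.49 at 40 ppm, against 10.58, 10.05, 10.49, 10.38 and 9.84 in air. At 10 ppm replicates 2 and 5 lay well below all air arrays and the others in the air range, and at 40 ppm only replicate 2 lay in the air range. Hspb1, the small heat shock protein Hsp25, ran from 10.85 to 11.45 in exposed lungs (median 11.17) and from 11.27 to 11.80 in air lungs (median 11.46), a difference of -0.37 ± 0.10 (limma adjusted p = 0.256). Its second bright probe set gave -0.36. Ahsa1, an activator of Hsp90, stood at -0.20 ± 0.06 on its bright probe set, and the mean over both of its probe sets had the other sign (0.06). Stip1, which links Hsp70 with Hsp90, stood at -0.30 ± 0.10.

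The other 4 members with an unadjusted p under 0.05 were named after their values were seen. Hspa1b, an inducible Hsp70, was the most variable. It had a log2 signal of 10.88, 8.66, 9.56, 10.00 and 8.35 at 10 ppm and 8.37, 10.17, 9.02, 8.47 and 7.94 at 40 ppm, against 10.68, 10.49, 10.69, 9.06 and 9.36 in air. The groups overlapped over the whole air range, and the difference was -0.91 ± 0.40 (limma adjusted p = 0.387). Dnaja1, a J-domain cochaperone, stood at -0.33, Hspe1, the mitochondrial chaperonin Hsp10, at -0.31 and Hspa4l, another Hsp110 relative, at -0.24. The constitutive Hspa8 stood at -0.07 ± 0.09 and Hsp90aa1 at -0.14 ± 0.11, and Cryab, Dnajb1 and Hspb8 stood between 0.02 and 0.06, of which Dnajb1 was at -0.05 without air replicate 4 and Cryab at -0.03 with centred arrays.

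**Figure D3:**
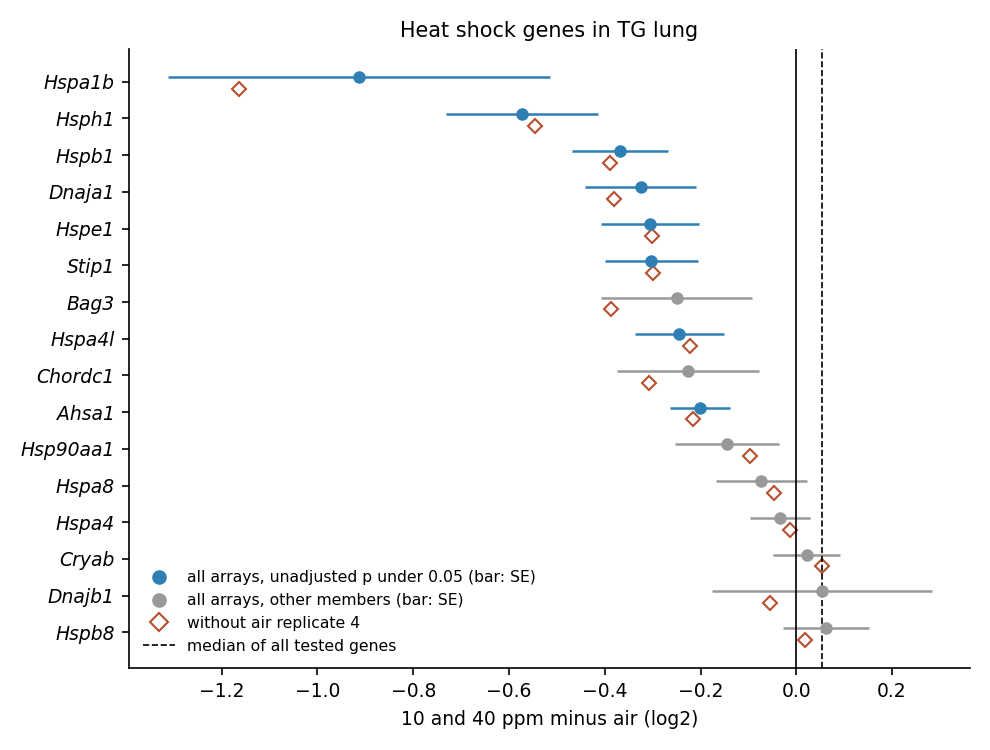
Difference between 10 and 40 ppm and air in TG lung (x axis, log2) for the 16 tested heat shock genes (y axis). Circles with bars give the difference and its SE from all arrays, coloured where the unadjusted p was under 0.05, and diamonds give the difference without air replicate 4. The 8 coloured members lay below 0, led by Hspa1b at -0.91, and the dashed line marks the median of all tested genes at 0.05.

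The promoters of 4 of the lower members are shown because these genes stood below air together and their windows hold the short form of the heat shock element. The windows are the 250 bases before the start in RefSeq on GRCm38.p6: chr5:135887669-135887918 (+ strand) for Hspb1, chr5:149636316-149636565 (- strand, 1 of 2 listed) for Hsph1, chr1:55087898-55088147 (+ strand) for Hspe1 and chr17:34959239-34959488 (- strand) for Hspa1b. Capitals mark GAANNTTC or TTCNNGAA, which each read the same on both strands and overlap where capitals run on.
Hspb1: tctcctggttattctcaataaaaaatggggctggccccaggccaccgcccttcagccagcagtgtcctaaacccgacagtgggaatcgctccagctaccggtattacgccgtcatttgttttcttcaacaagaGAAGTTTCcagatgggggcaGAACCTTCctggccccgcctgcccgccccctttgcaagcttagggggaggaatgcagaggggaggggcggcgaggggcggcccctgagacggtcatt
Hsph1: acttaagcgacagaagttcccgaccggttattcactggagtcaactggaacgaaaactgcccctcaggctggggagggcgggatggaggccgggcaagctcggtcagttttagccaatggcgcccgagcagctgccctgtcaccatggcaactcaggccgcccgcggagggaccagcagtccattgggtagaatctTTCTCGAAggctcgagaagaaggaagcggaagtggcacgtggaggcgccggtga
Hspe1: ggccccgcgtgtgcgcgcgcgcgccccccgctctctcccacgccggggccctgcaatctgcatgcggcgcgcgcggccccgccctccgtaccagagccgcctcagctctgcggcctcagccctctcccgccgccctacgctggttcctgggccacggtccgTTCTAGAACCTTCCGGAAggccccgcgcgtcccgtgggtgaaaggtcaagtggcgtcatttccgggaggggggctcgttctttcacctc
Hspa1b: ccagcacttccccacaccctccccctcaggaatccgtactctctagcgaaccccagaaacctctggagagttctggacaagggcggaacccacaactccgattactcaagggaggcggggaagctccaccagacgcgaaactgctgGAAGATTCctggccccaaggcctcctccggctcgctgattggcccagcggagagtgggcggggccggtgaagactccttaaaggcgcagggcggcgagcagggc
Hspb1 held 2 matches, Hspe1 3 overlapping ones, and Hsph1 and Hspa1b 1 each. Of 13 tested heat shock genes with a promoter in the table, 5 held a match in some promoter (38.5%), and all 5 were among the 8 lower members. A match was found in 12.8% of all promoters and for 14.5% of 27025 genes. The 8 lower members were picked by their p in these data, and the promoters shown were picked for their matches. The overlap is therefore a description of the letters, and a role of HSF1 was not tested.

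Chaperones of the endoplasmic reticulum belong to the unfolded protein response, which ATF6, XBP1 and ATF4 drive. Of 22 tested members, 14 stood below air, beside 31.2% of all tested genes. At an unadjusted p under 0.05, 3 were lower, beside 1.46% of all genes, and 1 was higher, beside 10.3%. The list median was -0.08 as deposited, -0.13 with centred arrays and -0.03 without air replicate 3. Manf and Hspa5 are given above, and Pdia4, a disulfide isomerase, stood at -0.19 ± 0.08. Atf3, a stress transcription factor also on the immediate early list, went the other way. It ran from 4.41 to 5.12 in exposed lungs (median 4.63) and from 4.08 to 4.77 in air lungs (median 4.27), a difference of 0.33 ± 0.12 (limma adjusted p = 0.303). It stood 0.41 above air at 10 ppm, 0.25 at 40 ppm and 0.08 at 120 ppm.

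Immediate early genes respond first to growth factors, stress and cyclic AMP. The 23 tested members had a median of 0.10. At an unadjusted p under 0.05, 2 were higher and 2 lower, beside 10.3% and 1.46% of all tested genes. Those higher were Atf3 and Fos, a subunit of the AP-1 factor (0.27 ± 0.10), and those lower were Nr4a3 and Nr4a2, its close relative (-0.29 ± 0.09). Nr4a2 ran from 5.76 to 6.26 in exposed lungs and from 6.15 to 6.57 in air lungs. Its 4 other probe sets, all dimmer, gave between 0.11 and 0.13, and the mean over all 5 was 0.04, so its direction is uncertain.

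Genes of oxidative defence and xenobiotic metabolism mostly stood above air, as did 68.8% of all tested genes (49% with centred arrays and 51.7% without air replicate 4). In the NRF2 and glutathione list, 24 of 29 tested members stood above air and 7 had an unadjusted p under 0.05, all higher, beside 10.3% of all genes (median 0.13). Without air replicate 4 there were 4, beside 4.52% of all genes (median 0.11). Gstm1 and Gstm2, glutathione transferases, stood at 0.19 ± 0.06 and 0.20 ± 0.07, Akr1b8, an aldo-keto reductase, at 0.30 ± 0.10, and Nqo1, a quinone reductase, at 0.37 ± 0.13. The value of Nqo1 rested on air replicate 4, which stood at 3.17 while the other air arrays lay between 4.02 and 4.14 and the exposed arrays between 4.11 and 4.73. Without that array Nqo1 differed by 0.18 (limma adjusted p = 0.622). Nqo1 lay above the median of the table (4.28) on only 3 of the 15 arrays.

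In the styrene and xenobiotic metabolism list 28 of 35 tested members stood above air, beside 68.8% of all tested genes. Of the 35, 6 had an unadjusted p under 0.05, all higher, beside 10.3% of all genes, and the median was 0.10. Without air replicate 4 there were also 6, beside 4.52% of all genes, and the median was 0.10. With centred arrays 2 members were higher at that threshold, a share near the 5.38% of all genes. Of the 35, 13 then stood below air, beside 51% of all genes. The median was 0.07 without air replicate 3. Sult1a1, a phenol sulfotransferase, had the lowest p. Its log2 signal was 9.26, 9.21, 9.001, 9.30 and 9.34 at 10 ppm and 9.49, 9.20, 9.55, 9.96 and 9.53 at 40 ppm, against 9.01, 8.995, 8.76, 9.14 and 9.03 in air. All exposed arrays but 10 ppm replicate 3 lay above all air arrays, and the difference was 0.40 ± 0.09 (limma adjusted p = 0.209). It stood 0.24 above air at 10 ppm, 0.56 at 40 ppm and 0.64 at 120 ppm, and without air replicate 4 the pooled difference was 0.44. Aox3 stood at 0.25 ± 0.07, Gstk1, a mitochondrial glutathione transferase, at 0.19 ± 0.07 and Ugt1a6a, a glucuronosyltransferase, at 0.24 ± 0.10. Of the 7 tested targets of the aryl hydrocarbon receptor, 2 had an unadjusted p under 0.05, both higher, beside 10.3% of all genes. They were Ugt1a6a and the dim Nqo1, which lay above the median of the table on only 3 of the 15 arrays. With centred arrays, and also without air replicate 4, 1 member was higher and Ahr was lower at that threshold. Tiparp, a feedback inhibitor of the receptor, stood at 0.16 ± 0.11 and Ahr, the receptor itself, at -0.14 ± 0.08, with 0.004 for the mean over its 2 probe sets.

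Cyp2f2, the mouse enzyme that CYP2F1 stands in for, had a log2 signal between 11.48 and 12.00 in exposed and between 11.48 and 11.89 in air TG lungs, a difference of 0.12 ± 0.09 (limma adjusted p = 0.625). A single probe set reads the gene, and no label places it relative to any deleted part, so its signal checks nothing about the allele. Among the 17 tested club cell markers 4 had an unadjusted p under 0.05, all higher, beside 10.3% of all tested genes. They were Aox3, Cldn10, a tight junction protein (0.34 ± 0.11), Cckar, the cholecystokinin A receptor (0.26 ± 0.10), and Pon1, the esterase paraoxonase (0.23 ± 0.11). The list median was 0.03 as deposited and -0.03 with centred arrays. With centred arrays only 2 members were higher at that threshold, beside 5.38% of all genes. Of the 17, 10 then stood below air, beside 51% of all genes. Without air replicate 4 the same 4 members stood between 0.26 and 0.30.

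Markers of connective tissue and muscle stood lower in exposed lungs as groups, with no member called. Of 15 fibroblast and matrix genes, 13 stood below air, beside 31.2% of all tested genes (median -0.16). Of the 15, 4 had an unadjusted p under 0.05, all lower, beside 1.46% of all genes. Col1a1 and Col3a1, chains of the fibrillar collagens, stood at -0.48 ± 0.18 and -0.34 ± 0.13, Fn1, fibronectin, at -0.32 ± 0.12 and Npnt, a basement membrane ligand, at -0.28 ± 0.11. Col1a1 varied far more in exposed lungs, from 6.13 to 7.52, than in air lungs, from 7.33 to 7.46. All 12 tested cardiac muscle markers stood below air, beside 31.2% of all tested genes, with 0 at an unadjusted p under 0.05 and a median of -0.58. In mouse lung such transcripts come from the sleeve of cardiac muscle around the pulmonary veins. Actc1, cardiac actin, ran from 8.25 to 10.12 in exposed lungs (median 9.09) and from 8.82 to 10.42 in air lungs (median 9.91). The mean log2 level of the 12 markers ran from 5.47 to 7.82 in exposed lungs and from 5.92 to 7.98 in air lungs, and none of the 12 was at or below the median of the table on all 15 arrays. The part of this tissue's share in the other differences was not tested.

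Pericyte and smooth muscle markers had a median of -0.17, with 10 of 12 below air, beside 31.2% of all tested genes. The median was -0.26 without air replicate 4 and -0.09 without air replicate 5. It was -0.35 at 10 ppm and -0.07 at 40 ppm. Acta2 and Myh11, the smooth muscle actin and myosin, stood at -0.22 ± 0.12 and -0.31 ± 0.16, and Kcnj8, a pericyte potassium channel, at -0.28 ± 0.14 (-0.47 without air replicate 4). Acta2 stood at -0.13 without air replicate 5. Rgs5, which restrains G protein signalling in pericytes, was 1 of the 2 members above air, the other being Lmod1 (0.03, and -0.06 without air replicate 4). Its log2 signal was 5.84, 6.03, 5.50, 6.49 and 6.05 at 10 ppm, 6.54, 6.38, 6.16, 6.29 and 6.47 at 40 ppm, against 5.93, 5.71, 5.71, 5.16 and 6.05 in air. All 40 ppm arrays lay above all air arrays, while the 10 ppm arrays overlapped them, and the pooled difference was 0.46 ± 0.14 (limma adjusted p = 0.280). It stood 0.27 above air at 10 ppm, 0.66 at 40 ppm and 1.14 at 120 ppm.

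Mesothelial markers, from the cells that cover the lung surface, had the highest list median at 0.33. All 8 stood above air, as did 68.8% of all tested genes. The median was 0.09 at 10 ppm and 0.52 at 40 ppm. Gpm6a, a membrane glycoprotein, stood at 0.38 ± 0.11 and Upk3b, a uroplakin, at 0.47 ± 0.22. These 2 had an unadjusted p under 0.05, beside 10.3% of all tested genes that were higher at that threshold. Upk3b ran from 6.64 to 8.10 in exposed lungs and from 6.38 to 7.83 in air lungs, so the groups overlapped widely. The list median was 0.48 on leaving out air replicate 1, the air array with the highest Upk3b. It was 0.24 on leaving out air replicate 3, when Upk3b stood at 0.33 and Rspo1, another member, at 0.23.

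DNA replication genes had a median of 0.03 over 28 tested members (-0.03 with centred arrays). At an unadjusted p under 0.05, 3 members were higher, Rrm1 (0.25), Lig1 (0.21) and Fen1 (0.29), a share near the 10.3% of all tested genes. Rrm2, which with Rrm1 encodes ribonucleotide reductase, gave -0.26 ± 0.09, but it was at or below the median of the table on all 15 arrays and its other probe set gave 0.10, so it has no usable reading. The values of Lig1 and Fen1 rested in part on air replicate 4 and were 0.13 and 0.12 without it. Mitosis genes had a median of -0.09 over 18, which was -0.20 without air replicate 4 and 0.06 without air replicate 1, so 1 array turns its direction. Of the 18, 6 were at or below the median of the table on all 15 arrays. They include Tpx2, a spindle assembly factor, which gave -0.38 ± 0.12 while its other probe set gave -0.006. Cdk1, the mitotic kinase, gave -0.39 ± 0.18 and lay above that median on only 4 of the 15 arrays. Of 18 core clock genes, 2 had an unadjusted p under 0.05, both lower, beside 1.46% of all tested genes. Per2 stood at -0.24 ± 0.11 and Rora at -0.20 ± 0.09. The second probe set of Per2 gave -0.11. Other bright probe sets of Rora gave 0.01 and -0.08, so its direction is uncertain.

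**Figure D4:**
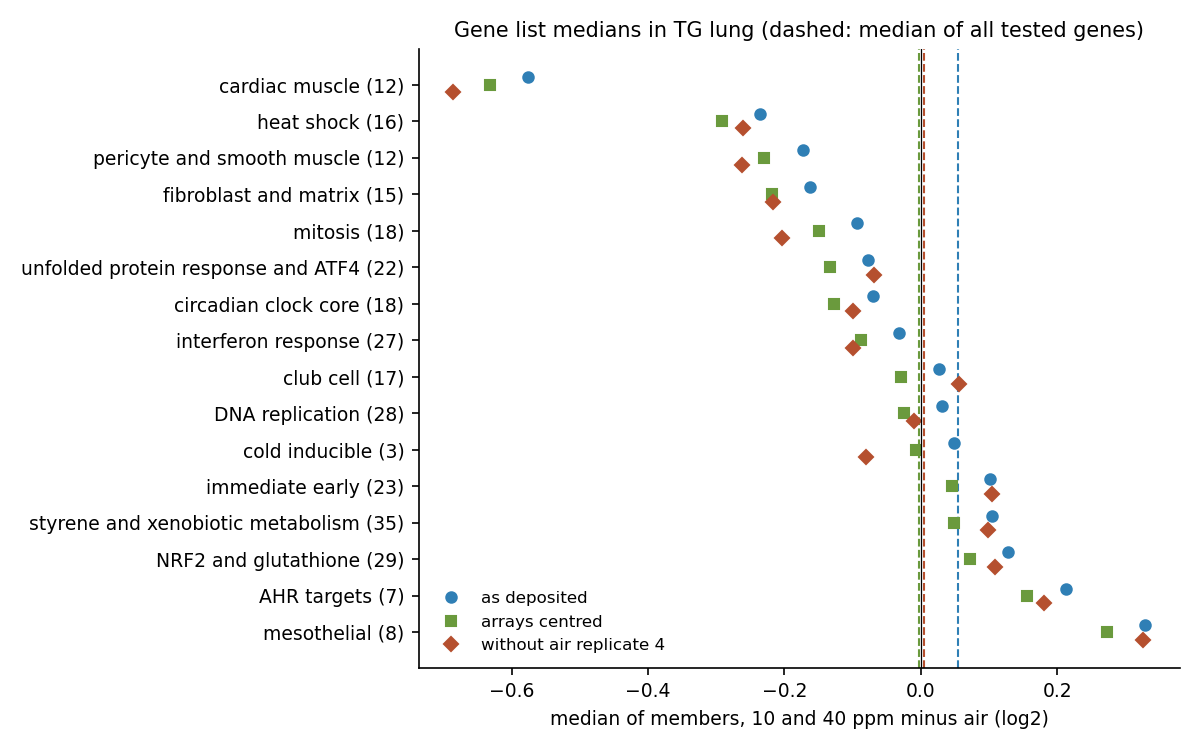
Median difference between 10 and 40 ppm and air over the tested members of 16 gene lists in TG lung (x axis, log2), with the number of members after each name (y axis). Circles are values as deposited, squares with centred arrays and diamonds without air replicate 4, and dashed lines mark the median of all tested genes in the same colours. As deposited, cardiac muscle (-0.58) and heat shock (-0.24) lay lowest, and mesothelial markers (0.33) lay highest under all 3 settings.

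The response of TG lung was set against that of KO lung, from the CYP2F2 knockout strain, by a test of the difference itself. Limma called 3 genes (0.0263%), all with a higher response in TG. N6amt1 differed by 0.41 between exposed and air lungs in TG and by -0.28 in KO, a difference of 0.69 ± 0.13 (limma adjusted p = 0.0306). Khk differed by 0.53 in TG and -0.20 in KO (0.73 ± 0.14, limma adjusted p = 0.0306), and 2510002D24Rik by 0.45 in TG and -0.14 in KO (0.58 ± 0.11, limma adjusted p = 0.0306). In air these genes stood lower in TG than in KO: the mean log2 signal of N6amt1 was 4.94 ± 0.09 in TG and 5.74 ± 0.17 in KO, and that of Khk was 5.68 ± 0.27 in TG and 6.36 ± 0.24 in KO (SD, n = 5 each). At 40 ppm N6amt1 averaged 5.31 ± 0.07 in TG and 5.58 ± 0.24 in KO. None of the 3 calls held with centred arrays (limma adjusted p values between 0.0734 and 0.189), and only N6amt1 held without air replicate 4 (limma adjusted p = 0.0374), when Nr4a3 passed as well (-1.25 ± 0.23, limma adjusted p = 0.0374). Nr4a3 differed by -0.12 ± 0.13 in KO, where its air arrays averaged 4.41 ± 0.24, below the 5.83 ± 0.68 of TG. The 20 leading genes of the TG contrast shared its sign in 11 cases in KO and 11 in WT, and 0 of them passed in KO (0% called) and 7 in WT (25.3% called).

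Against WT, the parent strain, the difference in response was broad. Limma called 1282 genes (11.2%), with 793 higher (6.95%) and 489 lower (4.29%) in TG relative to WT. In WT alone 2887 genes passed, 1547 higher (13.6%) and 1340 lower (11.7%). Of these, 1095 differed from TG, which is 37.9% of the genes called in WT and 85.4% of those that differed. Both tests use the same WT arrays, so part of this overlap was fixed in advance. The genes that rose in WT had a median difference of 0.06 in TG and 0.31 in WT, and those that fell in WT had 0.04 in TG and -0.28 in WT, beside a median of 0.05 for all tested genes in TG.

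Interferon response genes showed the widest gap. Of 27 tested members, 26 rose in WT and 0 passed in TG, and 25 differed in response between the strains. Of the 27, 5 were at or below the median of the table on all 15 TG arrays, having passed the filter through other groups, and of the other 22 members 21 rose in WT and 20 differed in response. The list median was -0.03 in TG, -0.07 in KO and 2.18 in WT, and that of TG ran from -0.10 to 0.06 on leaving out air replicate 4 or air replicate 1. Mx1, an antiviral GTPase, averaged 2.99 ± 0.17 at 10 ppm and 2.99 ± 0.17 at 40 ppm against 3.19 ± 0.18 in air in TG lungs, and 8.25 ± 0.47 and 7.79 ± 0.62 against 4.28 ± 0.33 in WT lungs (SD, n = 5 each). The response differed by -3.94 ± 0.27 (limma adjusted p = 1.22e-12). Cxcl10, a chemokine for T cells (-4.65 ± 0.39), Oasl1, an antiviral regulator (-3.84 ± 0.28), and Gm9706 (-4.12 ± 0.32) differed as much. In TG lungs Mx1, Cxcl10 and Oasl1 lay at or below 4.28, the median of the table, on all 15 arrays, where small differences cannot be read. Rsad2, or viperin, was measurable in TG, from 6.55 to 8.27 in exposed lungs and from 6.22 to 7.24 in air lungs, and stood at 0.38 ± 0.27.

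The genes with the clearest higher response in TG had fallen in WT and stood slightly above air in TG. Aox3 differed by 0.25 in TG and -1.01 in WT, so the response differed by 1.25 ± 0.10 (limma adjusted p = 2.1e-11). Pon1 differed by 0.23 in TG and -1.49 in WT (1.73 ± 0.17), Slc4a5, a bicarbonate transporter, by 0.23 in TG and -1.27 in WT (1.504 ± 0.13), Ldhb, a lactate dehydrogenase subunit, by 0.19 in TG and -0.88 in WT (1.07 ± 0.11), Elapor1 by 0.13 in TG and -1.04 in WT (1.16 ± 0.12) and Cyp2f2 by 0.12 in TG and -0.70 in WT (0.81 ± 0.12, limma adjusted p = 5.74e-06). Of 17 club cell markers 9 fell in WT, and 9 differed in response, all higher in TG. DNA replication genes rose in 27 of 28 cases in WT with a median of 0.69, and 20 differed in response, all lower in TG. On all 15 TG arrays 10 of the 28 were at or below the median of the table, where a TG change could not be read, and of the other 18 members 17 rose in WT and 12 differed in response. For heat shock genes the difference ran the same way, lower in TG in 4 of 16 cases and higher in 0, with list medians of -0.24 in TG, -0.08 in KO and 0.10 in WT. Itih4 differed by -0.35 in TG and 1.40 in WT (-1.75 ± 0.14, limma adjusted p = 2.1e-11), Igf1 by -0.61 in TG and 0.76 in WT (-1.36 ± 0.22, limma adjusted p = 3.06e-05) and Hspa5 by -0.18 in TG and 0.23 in WT (-0.41 ± 0.08, limma adjusted p = 0.000353). Array medians lay between 4.53 and 4.60 in WT and between 3.84 and 4.14 in TG, and whether the strains were normalized together is not stated in the labels, so levels of one strain were not set against the other except as printed.

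**Figure D5:**
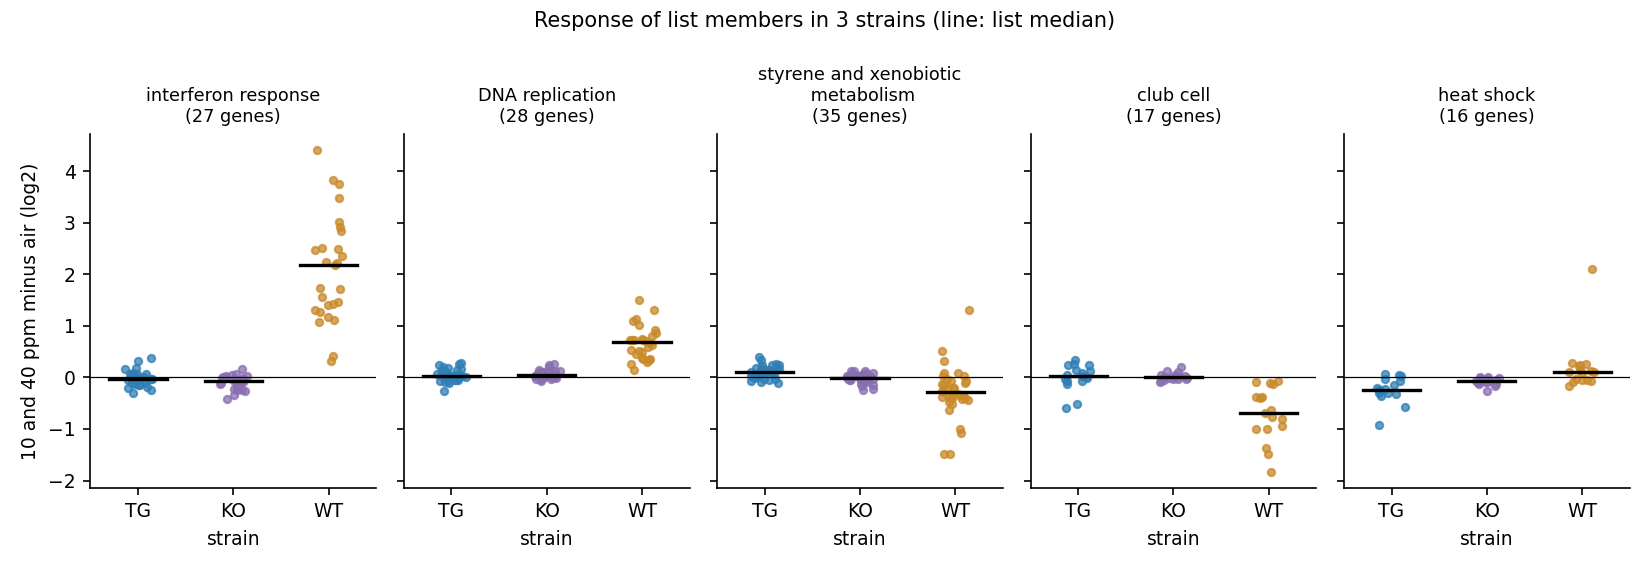
Difference between 10 and 40 ppm and air (y axis, log2) for the tested members of 5 gene lists in TG, KO and WT lungs (x axes). Points are genes and lines are list medians. Interferon response genes had a median of -0.03 in TG, -0.07 in KO and 2.18 in WT, and heat shock genes -0.24, -0.08 and 0.10.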

How the data were processed

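RNA of whole mouse lungs was read on Affymetrix arrays, and the authors deposited log2 values of 45037 probe sets on 80 arrays. The submitters' processing notes name RMA and Partek, without versions, and whether strains were processed together is not stated. Arrays were grouped by strain and dose from the sample titles. The platform annotation gave 1 symbol for 28898 of the probe sets and several for 551 and did not list 15588, and names were checked against RefSeq (GRCm38.p6). Each of 17097 genes was read by its brightest probe set over the series, and 11406 with a signal above the median of all values (4.28) in at least 5 arrays were tested. Limma 3.58.1 in R 4.3.3 (with the data.table package, version 1.17.8) fitted 1 mean per dose to the 20 TG arrays (16 residual degrees of freedom), and differences in response were fitted to 40 arrays of 2 strains (32 residual degrees of freedom). P-values were adjusted by Benjamini-Hochberg with a threshold of 0.05. Single values were tested by exact permutation of arrays. The 5 arrays of a group limit the precision: the median SE of the pooled contrast was 0.09. The scripts were tested on simulated data.

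The comparison, the 43 gene lists and the tests were chosen with earlier results of these data known. The rule for names took Cyp2f2, up to 15 called genes in each direction of the pooled contrast or, as none passed, the 10 of lowest p, up to 4 members of the lowest p in each of 16 lists, and up to 5 called genes in each direction of a strain difference. The other names, picked with values in view, were lung markers, the genes that alternatives called, Lmod1, and the heat shock members other than Hspb1, Hsph1, Ahsa1 and Stip1. List members without a named probe set or below the filter are not counted as tested. Alternatives covered array scale, filter, probe set, variance model, left-out arrays, the replicate block and a fold minimum.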

Additional observations from a re-analysis of the deposited data

Results flagged for a closer look

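In groups of 5 arrays, a single array was tested for its distance from the rest (Dixon's ratio above 0.71), and chance alone marks about 1 in 20 groups. Of 240 groups, 22 held such an array, and 7 of the 22 were TG air replicate 4. That array had the low values of its group for Khk (5.21), Rbm14 (7.47), Nqo1 (3.17), Kcnj8 (4.81), Lig1 (5.41), Fen1 (3.87) and the array median (3.84). At 10 ppm, replicate 1 stood apart for Rab27a (6.89), Gpm6a (7.30), Oasl1 (3.56) and the array median (4.07), and replicate 5 for Gstm1 (10.43) and Rsad2 (6.74). At 40 ppm, replicate 2 stood apart for Hsph1 (10.04), Stip1 (8.34), Nqo1 (4.73) and Pon1 (10.11), replicate 1 for Acta2 (10.74), replicate 3 for Tiparp (9.08), replicate 4 for Upk3b (8.10) and replicate 5 for Npnt (10.67). In air, replicate 2 stood apart for Hspa5 (11.07).

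Among the genes chosen by the rule for names, the response to 10 and 40 ppm differed in 43 cases between strains by limma's test of the difference itself, on the log2 scale. Part of this count was fixed by the choice, because the rule itself took called genes of each strain difference. Over all tested genes the share called was 0.0263% against KO and 11.2% against WT. Against KO the response in TG was higher for Khk (0.73), N6amt1 (0.69) and 2510002D24Rik (0.58). Against WT it was higher for Cyp2f2 (0.81), Rabl3 (0.34), Khk (0.57), Aqp11 (0.59), Micu2 (0.26), 2510002D24Rik (0.53), Gstm1 (0.58), Gstm2 (0.54), Aox3 (1.25), Gstk1 (0.62), Ugt1a6a (0.49), Cldn10 (0.96), Cckar (1.06), Pon1 (1.73), Gpm6a (0.52), Cry2 (0.56), Slc4a5 (1.504), Ldhb (1.07) and Elapor1 (1.16). Against WT it was lower for the leading genes Nr4a3 (-1.21), Itih4 (-1.75), Igf1 (-1.36), Hspa5 (-0.41) and Manf (-0.59), and for the stress genes Stip1 (-0.52), Atf3 (-0.74), Akr1b8 (-0.74) and Nqo1 (-0.63). It was also lower for Fn1 (-0.72), Acta2 (-0.87) and Ankrd1 (-1.18), for the interferon genes Igtp (-0.95), Cxcl10 (-4.65), Mx1 (-3.94), Rsad2 (-3.10), Oasl1 (-3.84) and Gm9706 (-4.12), and for the cell cycle genes Rrm2 (-1.56), Cdk1 (-1.32) and Top2a (-1.21). Of these, Mx1, Cxcl10, Oasl1 and Rrm2 lay at or below the median of the table on all 15 TG arrays, where a TG change could not be read.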

How the results depend on the processing

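The number of arrays, 5 per group, and 1 air array that stood apart limit the comparison, and dim probe sets cannot show small differences. In the pooled contrast, 0 genes passed as deposited, against 2 with centred arrays, 2 with array weights, 1 with the replicate number as a block, 1 centred without air replicate 4, and 0 to 1 when 1 of the 15 arrays was left out. The single calls were Nr4a3 without air replicate 4, Mul1 without air replicate 5 and N6amt1 without 10 ppm replicate 1. Centring and the array weights called Nr4a3 and Mul1, and the block called Nr4a3 (limma adjusted p = 0.0436). At 40 ppm the 0 calls became 4 with array weights, 1 centred without air replicate 4, and 0 to 1 on leaving out an array (Nr4a3 without air replicate 4, Sult1a1 without 40 ppm replicate 2). At 10 ppm they ranged from 0 to 5, with Ascc1, Bcl2l14, Khk, N6amt1 and Nkg7 called without 10 ppm replicate 1. Between 40 and 10 ppm there were 0 under every alternative run, with an unadjusted count of 840 as deposited. The count of differences between TG and KO, 3 as deposited, was 0 with centred arrays, 0 after quantile normalisation, 7 without the filter, 5 with array weights, 1 with the replicate block (Atf3) and 1 centred without air replicate 4 (Nr4a3), and none of Khk, N6amt1 and 2510002D24Rik passed under the block, with centred arrays, after quantile normalisation or centred without air replicate 4. Leaving out 1 TG array gave 0 to 14, with 14 without air replicate 5, 5 without air replicate 3, 1 without 40 ppm replicate 3 and 0 without 40 ppm replicate 2, and KO arrays were not left out. The 1282 differences between TG and WT ranged from 1171 to 1345 on leaving out an array and from 1112 to 1496 under the alternatives other than a 1.5-fold minimum, which left 450. Replicate numbers did not pair the arrays: of 15 pairs with the same number, 5 had deviations from the group means correlated above 0.1 (range -0.52 to 0.30), and the block moved no other count of calls by over 1.5 times.

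Directions changed for 5 of the genes that the rule for names chose, none of them called, and among the other names for Dnajb1, Cryab and Lmod1, with centred arrays or without air replicate 4. Rbm3 stood at -0.00765 and Rbm14 at -0.0303 with centred arrays, at -0.0327 and -0.0154 after quantile normalisation, at -0.0989 and -0.0679 with array weights and at -0.0976 and -0.0828 centred without air replicate 4. On leaving out 1 array Rbm3 ranged from -0.0946 to 0.161 and Rbm14 from -0.0798 to 0.0740, both lowest without air replicate 4. With the mean over probe sets Ahsa1 stood at 0.0620, Nr4a2 at 0.0364 and Ahr at 0.00410. The cause was not tested. The other genes chosen by the rule for names kept their direction. Of the 16 list medians only that of mesothelial markers moved by more than the spread of its members.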

Other observations

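Among the 27 lists not described above, medians of exposed against air TG lungs ran from -0.08 to 0.29, and no list had more than 4 members higher or 2 lower at an unadjusted p under 0.05. The highest median, 0.29, belonged to the erythroid and platelet markers. All 9 tested members of that list stood above air, and 2 had an unadjusted p under 0.05, beside 10.3% of all tested genes that were higher. Sterol synthesis genes had a median of 0.17 in TG, -0.01 in KO and 0.43 in WT, where 14 of 19 rose, beside 13.6% of all tested genes. In TG 4 of the 19 were higher at an unadjusted p under 0.05, beside 10.3% of all genes. With centred arrays 1 was higher at that threshold, beside 5.38%, and without air replicate 4 there were 2, beside 4.52%. Glucocorticoid response genes had a median of 0.12 in TG, -0.28 in KO and 0.21 in WT. Targets of p53 had a median of 0.09 in TG, with 15 of 17 above air, and 6 of the 17 below it with centred arrays. Of all tested genes 68.8% stood above air as deposited, and 51% stood below it with centred arrays.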
